A study of Macaca mulatta with 24 samples.

Results

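The comparison of T+WSD with T asks how the methylation of visceral fat differed between a western-style diet and chow in animals under testosterone. It holds 12 of the 24 animals of the study, 6 in each group, chosen by their labels alone. All 841143 CpG positions of the table were used. Every animal was a female rhesus macaque that carried an implant for 3 years, and the labels give 4 years as the age of each, although the study's methods describe older animals at biopsy. T animals carried a testosterone implant and ate monkey chow. T+WSD animals carried the same implant and ate a high-fat western-style diet. C animals (cholesterol implant, chow) and WSD animals (cholesterol implant, western-style diet) are used below to set the diet difference without testosterone beside the one under testosterone. The tissue was an omental white adipose tissue (WAT) biopsy of the third treatment year, and the study picked the sequenced animals as representative of their groups. The assay was reduced-representation bisulfite sequencing (RRBS), in which MspI cuts at CCGG so that CpG-rich fragments are read.

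DNA methylation places a methyl group on the cytosine of CpG dinucleotides. Methyltransferases copy the mark at cell division, and TET enzymes start its removal. CpG-dense promoters are mostly unmethylated and the bulk of the genome is mostly methylated, whereas intermediate levels are common at enhancers, at imprinted or X-inactivated sequence, and where cell types or alleles of a tissue differ. Omental WAT is a visceral fat depot that holds adipocytes, their progenitors, vascular cells and immune cells. A difference in these bulk biopsies may be a difference in methylation per cell or in the share of cell types, and these cannot be told apart.

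The labels number C animals 1 to 6, T+WSD animals 7 to 12, T animals 13 to 18 and WSD animals 19 to 24. No batch is given. If the numbers followed a batch (1 to 12 against 13 to 24), the diet difference under testosterone cannot be told apart from it, and neither can the difference between WSD and C. The direction differs: the high numbers are the chow animals under testosterone and the diet animals without it. A position that follows the number series therefore moves in opposite directions in the 2 diet comparisons, which share no animals. A diet difference that turned its direction with testosterone would have the same arrangement, so "number series" below names the arrangement only. For each feature below the means of C and WSD were placed by whether they lay nearer to T or to T+WSD. The T 16 library had values at 717554 positions, with 14.7% missing, against 780300 to 825237 positions in the other T and T+WSD animals. At CpGs of intermediate level its median distance from the median of all animals was 11.4 percentage points, and that of every other animal was at most 8.90 points.

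Mean methylation did not shift. The mean was taken over the 475736 CpGs of the autosomes and chromosome X that had no missing value. The lowest T animal was at 44.4%, the median at 45.2% and the highest at 45.6%. In T+WSD these were 44.5%, 45% and 45.8%. The groups overlapped over nearly their whole range. The means were 45.1% ± 0.433 (SD, n = 6) in T and 45.1% ± 0.516 (SD, n = 6) in T+WSD. T+WSD minus T was −0.0567 percentage points (two-sided exact permutation p = 0.831). Its sign was not firm, at 0.341 points when each animal was averaged over its own measured CpGs and −0.212 to 0.0649 without single animals. WSD minus C was −0.251 points, and the 2 diet differences differed by 0.195 points (exact permutation of diet labels within each implant, p = 0.646). Of 21 chromosomes, 15 had a lower mean in T+WSD, with differences from −0.318 to 0.0891 points and a lowest exact permutation p of 0.173 (adjusted p = 0.991).

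The differences had opposite signs at low and at high levels, and none passed the correction. CpGs were put into 7 classes by their mean over C and WSD animals, which are no part of the comparison. The 26770 CpGs at 20 to 40% had a mean of 29.2% ± 1.39 (SD, n = 6) in T and 30.3% ± 1.75 (SD, n = 6) in T+WSD. This was a difference of 1.11 points (exact permutation p = 0.232, adjusted p = 0.451 over the 7 classes). The medians were 29.2% in T and 29.3% in T+WSD, and T+WSD 8 (32.5%) and T+WSD 12 (32.6%) were the high animals. Without T+WSD 8 the difference was 0.672 points and without T+WSD 12 it was 0.653 points. At the 105396 CpGs at 80 to 95% the T animals had a lowest value of 87.8%, a median of 88.7% and a highest value of 89.1%. The T+WSD animals had 87.3%, 88.1% and 88.5%. The difference there was −0.530 points (exact permutation p = 0.0649, adjusted p = 0.451), and the groups overlapped. The class at 5 to 20% differed by 0.792 points and the class at 60 to 80% by −0.911 points, each with an adjusted p of 0.451. The former was 0.373 points without T+WSD 8, and the latter was −0.608 points without T+WSD 9. WSD minus C had the same sign as T+WSD minus T in all 7 classes with all animals, although in the 40 to 60% class T+WSD minus T was above 0 without T+WSD 9 (0.158 points), T+WSD 10 (0.0918) or T 16 (0.181). WSD minus C was −0.700 points in the 80 to 95% class and −1.30 points in the 60 to 80% class. In 5 classes of CpG density, counted as measured positions within 100 bp, the lowest adjusted p was 0.989.

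**Figure D1:**
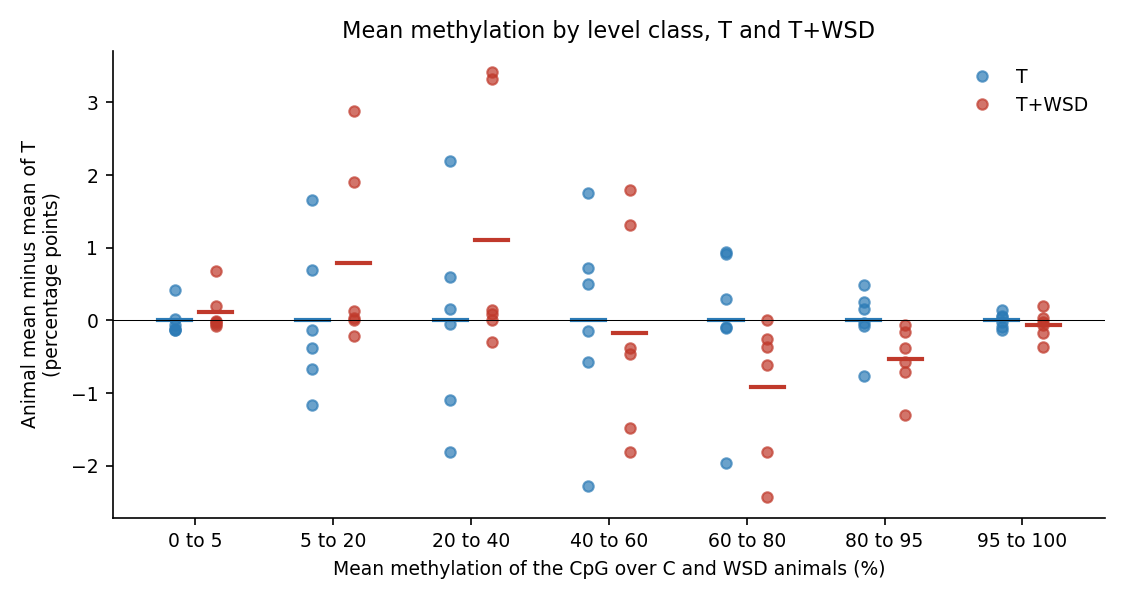
Mean methylation of each T (blue) and T+WSD (red) animal in 7 classes of CpGs, as the distance from the mean of T in percentage points; the horizontal axis gives the class by mean level over C and WSD animals, and bars are group means. The T+WSD mean lies 1.11 points above T at 20 to 40% and differs from it by −0.911 points at 60 to 80%, the animals of both groups overlap in every class, and T+WSD 8 and T+WSD 12 (32.5 and 32.6%) are the 2 high points at 20 to 40%.

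Whole profiles were further apart between T+WSD and T than under every other division of the 12 animals into 6 and 6. The pseudo-F, the ratio of variation between groups to that within groups over 487852 complete CpGs, was 1.14 (exact permutation p = 0.00216, the smallest that the divisions can give). Over the 10000 most variable CpGs it was 0.952 (exact permutation p = 0.675). The number series divides these 12 animals in the same way as the diet does.

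Differentially methylated CpGs (DMCs) had an adjusted p under 0.05 by limma and a difference over 10 percentage points. There were 57 DMCs, which is 0.00678% of the positions tested. They gained methylation in T+WSD at 47 positions (0.00559%) and lost it at 10. By unadjusted p, 56176 positions were under 0.05 (6.68%), and these were balanced, with 27150 higher and 29026 lower in T+WSD. T+WSD and T did not overlap at any of the 57 DMCs, against 0.499% of all positions without overlap, as the choice of DMCs by the same contrast requires. The median size of the difference was 34.6 points. The X chromosome held 9 of the 57 DMCs and 3.21% of all positions, and 4 DMCs lay outside the autosomes and X, where 2.83% of positions lay. Gene annotation of the rheMac8 build was not used here, so positions are given without genes.

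At most DMCs the diet difference without testosterone went the other way. WSD minus C had the direction of T+WSD minus T at 7 of the 57 (12.3%). It did so at 50.5% of the 791144 positions that were higher or lower in T+WSD, and at 56.5% of those that differed by over 10 points. Counted in the direction of the DMC, the median WSD minus C was −26.7 points. C lay nearer to T+WSD and WSD nearer to T, the arrangement of the number series, at 39 DMCs (68.4%), against 15.8% of all positions over 10 points. At 13 DMCs (22.8%) both C and WSD lay nearer to T, against 35.4% of those positions. These include the 6 DMCs of the chromosome 19 region described below, at each of which WSD lay below C without overlap. At 3 DMCs (5.26%) C lay nearer to T and WSD nearer to T+WSD, the grouping by diet, against 21.9% of those positions. They include chr20:73652732, described below, where the means of C and WSD were nearly equal (65.2 and 64.8%). WSD and C themselves did not overlap, in the opposite direction, at 40 of the 57 DMCs, while 0.383% of all positions had no overlap between WSD and C in either direction. The share in the same direction depended on the animals in the fit. With only T+WSD and T in the fit there were 69 DMCs, and WSD minus C had the same direction at 25 of them (36.2%). Without T+WSD 12 it was so at 1 of 45 DMCs (2.22%) and without T 15 at 1 of 44 (2.27%). What sets this arrangement was not tested.

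The 3 DMCs with the largest gains all had this arrangement. At chr4:45310582 the 6 T animals lay between 0 and 5% with a median of 0%, and the T+WSD animals between 53.3 and 77.5% with a median of 68.1%. C animals lay between 65.9 and 84.8%, and the 4 WSD animals with a value between 0 and 7.14%. The high animals were thus those numbered 1 to 12 and the low animals those numbered 13 to 24, with no overlap. T+WSD minus T was 64.6 points (limma adjusted p = 3.28e-06) and WSD minus C was −72.0 points. At chr11:130760594 the 5 T animals with a value lay between 0 and 20% and the T+WSD animals between 65.4 and 77.6%, a difference of 61.1 points beside −64.1 points for WSD minus C. Both positions resembled a genotype by a range over 50 points among the 24 animals with an empty gap of at least 20 points. In all 5 of the 57 DMCs and 4.72% of all positions did so. At chr15:2945858 the difference was 59 points and WSD minus C was −63.7 points.

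The 3 largest losses among DMCs were arranged in 3 different ways. At chrX:67570373 the T animals lay between 66 and 85.7% with a median of 73.2%, and the T+WSD animals between 16.7 and 55.6% with a median of 31.9%. C animals (21.1 to 47.2%) were low and WSD animals (59.2 to 80.8%) were high, again the number series. The difference was −40.8 points (limma adjusted p = 0.0117). At chr9:109877955 only T+WSD was low. Its animals lay between 16.7 and 41.4%, against 65.3 to 92.3% in T, 54.3 to 66.7% in C and 64.4 to 86.7% in WSD. The T+WSD minus T difference there was −40.5 points (limma adjusted p = 0.0121). At chr20:73652732 the T animals, 76.9 to 91.7%, were the highest group, the T+WSD animals at 40 to 57.1% the lowest, and C and WSD lay between them with means of 65.2 and 64.8%.

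Differentially methylated regions (DMRs) were runs of at least 2 neighbouring CpGs whose combined limma p-values passed a Sidak p of 0.1 and whose mean differed by over 10 points. There were 73 DMRs, 58 gains and 15 losses in T+WSD, on 20 chromosomes. Without T+WSD 8 there were 10, 9 of them among the 73. When only CpGs with a mean level between 5% and 95% were used there were 169 DMRs, 120 gains and 49 losses. At a Sidak p under 0.05 there were 50, of which 43 were gains and 7 losses. The 73 DMRs held 468 CpGs, 0.0556% of the positions. A DMR had a median of 5 CpGs and at most 18, over a median of 173 bp (19 to 709 bp). In 70 of the 73 every CpG had the direction of its region. The size of the difference ranged from 11.2 to 42.9 points with a median of 19.4. DMCs and DMRs were largely separate sets, since 48 of the 57 DMCs lay outside DMRs and 4 of the 73 DMRs held a DMC. Relative to the positions measured, DMRs were most frequent on chromosome 20 (8 DMRs at 42609 positions) and then on chromosome 17 (3 at 18510). Chromosome 19 held 7 at 62025 positions and chromosome 16 held 6 at 49030. The outer 2 megabases of the chromosomes held 15.1% of the DMRs and 13.7% of all positions.

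Gains were mostly at intermediate levels. The C mean, which does not enter the difference, was between 20 and 60% at 43 of the 58 gains (74.1%). It was so at 10.8% of all CpGs and at 53.3% of the tiles that were over 10 points higher in T+WSD. Among the gains the group means had medians of 26.2% (T) and 49.6% (T+WSD), and of 30.3% (C) and 33.1% (WSD). Losses started from higher levels, with medians of 66.7% (T) and 48.1% (T+WSD), and of 71.9% (C) and 56.7% (WSD). Taken by animal, the median over the gains was 21.8 to 27.9% in the T animals and 45.1 to 55.9% in the T+WSD animals. It was 28.7 to 41.5% in the WSD animals and 19.3 to 37% in the C animals.

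In contrast to the DMCs, DMRs called with all animals mostly showed a diet difference in the same direction without testosterone. WSD minus C had the direction of T+WSD minus T at 60 of the 73 DMRs (82.2%), with a median of 5.49 points beside 19.4 points. Without T+WSD 8 it did so at 6 of 10 DMRs (60%). All 15 losses and 45 of the 58 gains had the same direction. The choice of DMRs by T+WSD minus T itself favours a smaller WSD minus C. Tiles over 10 points had medians of 12.5 points for T+WSD minus T and 2.57 points for WSD minus C in that direction. Among the 100830 tiles of 1 kb that were higher or lower in T+WSD, the share in the same direction was 53.9%. Among tiles that differed by over 10 points it was 64.7%. Both are with all animals, so that the share of DMRs without T+WSD 8 was no higher than that of such tiles. At 49 DMRs (67.1%) the means of both C and WSD lay nearer to T than to T+WSD. This held for 43.3% of the tiles over 10 points. The placement compares means only, so the animals of WSD could still overlap with those of T+WSD. At chr6:76908592-76908649, which is among the 49, the highest WSD animal was at 58.1% and the lowest T+WSD animal at 44.6%. At 15 DMRs (20.5%) C lay nearer to T and WSD nearer to T+WSD, and at 7 (9.59%) the groups followed the number series. Both shares were below those of the tiles over 10 points, 24.9% and 11.8%. WSD and C did not overlap at 5 of the 73 DMRs, 1 in the same direction and 4 in the opposite one, against 1.49% of the tiles over 10 points and 0.561% of all tiles. Of the 4 DMRs that held a DMC, 1 had the same direction.

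**Figure D2:**
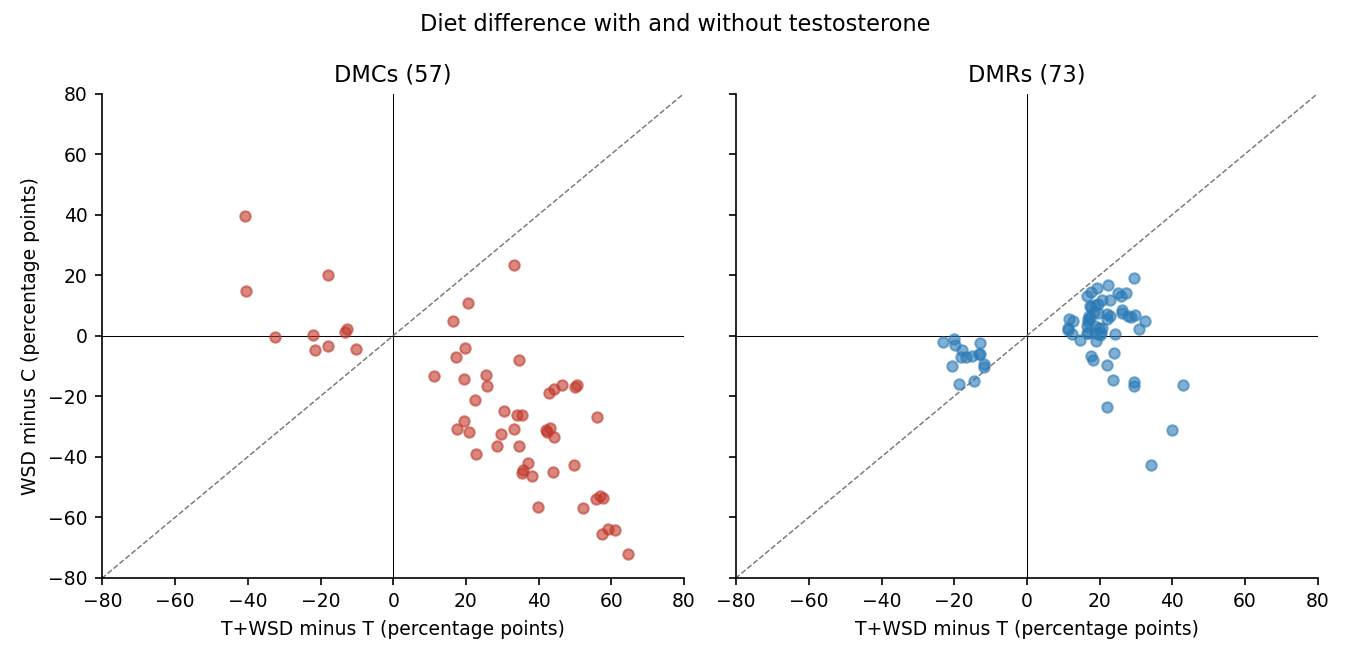
Diet difference without testosterone (WSD minus C, vertical axis) against the diet difference under testosterone (T+WSD minus T, horizontal axis), both in percentage points, for 57 DMCs (left) and 73 DMRs (right); the dashed line marks equal differences. At the DMCs 7 points lie in the quadrants of equal sign, and at the DMRs 60 do. Nearly all of these have the smaller difference on the vertical axis, which the choice of DMRs by the horizontal axis favours.

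T+WSD and T did not overlap at 51 of the 73 DMRs, against 0.744% of 1 kb tiles, which again follows from the choice by this contrast. Of these, 48 had at least 3 CpGs, 39 gains and 9 losses. The 10 largest gains and all 9 losses are described next.

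The largest gain was at chr19:45316411-45316481, with 7 CpGs of which 6 were DMCs. The T animals lay between 8.16 and 17.5% with a median of 10.5%, and the T+WSD animals between 45.5 and 67.6% with a median of 53.6%. WSD animals were as low as T (6.49 to 17.7%) and C animals lay in between (22 to 39.1%). No T+WSD animal overlapped an animal of another group, and every animal numbered 1 to 12 lay above every animal numbered 13 to 24. The region is not in the count of the number series because its C mean lay nearer to T. T+WSD minus T was 42.9 points (limma p-values, Sidak-adjusted p = 5.79e-17) and WSD minus C was −16.3 points. At chr17:29478350-29478648 (11 CpGs) the T animals lay between 0 and 44.5%, the T+WSD animals between 46.6 and 61.9%, WSD between 4.41 and 32.8% and C between 48.6 and 83%. The 34.2-point gain there thus had the arrangement of the number series, with WSD minus C at −42.8 points.

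A pair of gains lay 102514 bp apart near the start of the X chromosome. At chrX:1237405-1237468 (5 CpGs) the T animals lay between 9.41 and 36.3% with a median of 16.7%, and the T+WSD animals between 41.9 and 59.9% with a median of 49.7%. Here T stood apart in the mean, at 20.3% against 46.3% in WSD and 61.4% in C. WSD animals (37.5 to 61.5%) did not overlap with T, whereas C animals (27.4 to 80.4%) did through C 5, the lowest of them. At chrX:1339982-1340146 (8 CpGs) the T animals lay between 6.50 and 49.2%, and the T+WSD animals between 52.7 and 68.2%. There T+WSD was highest in the mean, with medians of 33.5% in C and 37% in WSD. The gains were 29.4 points (limma p-values, Sidak-adjusted p = 0.0032) and 29.7 points (limma p-values, Sidak-adjusted p = 0.00171).

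Another pair lay 7091 bp apart on chromosome 6. At chr6:76908592-76908649 (4 CpGs) the T animals lay between 19 and 39.3% with a median of 30.7%, and the T+WSD animals between 44.6 and 82.7% with a median of 56.2%. The C animals (15.9 to 33.7%) were all below the WSD animals (34.4 to 58.1%). This was the 1 DMR where both diet comparisons had the same direction and the WSD and C animals did not overlap. The diet gain was 29.3 points under testosterone and 19.2 points without it. The second region, chr6:76915740-76916028, gained 19.5 points beside 10.5 points for WSD minus C. Another gain on this chromosome, chr6:63263952-63264025 (4 CpGs), had T animals at 13.2 to 40.3% and T+WSD animals at 51.1 to 66.8%, a gain of 27.3 points beside 14 points.

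The other 4 large gains had similar profiles, with the means of T close to those of C and the mean of WSD above both. At chr20:70421481-70421514 (4 CpGs) the T animals lay between 23.6 and 42% and the T+WSD animals between 48.2 and 71.4%, a gain of 26 points beside 13 points for WSD minus C. At chr19:6384947-6385104 (5 CpGs) the gain was 27.7 points beside 6.56. At chr9:87098694-87098892 (3 CpGs) it was 26.2 points (limma p-values, Sidak-adjusted p = 0.0653) beside 7.33. At chr16:4492926-4492996 (3 CpGs) it was 32.5 points beside 4.88, with 5 T and 4 WSD animals measured. T+WSD had the highest mean in all 4, and its lowest animals overlapped with the highest WSD animals. At the chromosome 20 region every WSD animal also lay above every T animal.

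In each of the 9 losses WSD was below C and T+WSD was below T in the mean. C and WSD both lay nearer to T in 4 of them, on chromosomes 2, 9, 10 and 15. In the other 5 WSD lay nearer to T+WSD. The largest was at chr9:126181442-126181515 (3 CpGs), where the T animals lay between 72.9 and 92.7% with a median of 76.6% and the T+WSD animals between 50.4 and 68.3% with a median of 58%. T 16, the library with the most missing values, was the highest T animal there. The loss was −20.1 points with all animals and −17.3 points without T 16, beside −1.20 points for WSD minus C. At chr2:59457508-59457680 (3 CpGs) T animals lay between 72.1 and 81.4% and T+WSD animals between 45.5 and 62.8%, a difference of −19.7 points beside −3.06. It was −14.3 points over the CpGs that had a value in all animals.

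The longest DMR, chr15:108742071-108742779, lost methylation at all of its 15 CpGs over 709 bp. The T animals lay between 71.4 and 84.5% with a median of 75.9%, and the T+WSD animals between 50.3 and 68.6% with a median of 59.6%. The WSD mean of 69% lay between those of T+WSD and C, and the WSD animals (64.9 to 73.8%) overlapped with T+WSD and with C (72.3 to 81%). The difference was −16.8 points (limma p-values, Sidak-adjusted p = 2.01e-05) beside −7.21 points for WSD minus C. At chr10:56228949-56229151 all 11 CpGs were lower. The T animals lay between 47.3 and 63.4% and the T+WSD animals between 27.7 and 43.4%, a difference of −18.2 points (limma p-values, Sidak-adjusted p = 0.000935) beside −6.97 points.

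In 2 losses the diet difference was of nearly the same size with and without testosterone. At chr11:122846202-122846453 (9 CpGs) T animals lay between 43.7 and 53.4% and T+WSD animals between 25.7 and 43.5%, while C lay between 41.3 and 66.4% and WSD between 30.4 and 46.7%. The differences were −14.6 points under testosterone and −14.9 points without it. At chr7:7239502-7239807 (6 CpGs) they were −18.6 points (limma p-values, Sidak-adjusted p = 0.0633) and −16 points. The other 3 losses, chr20:41164916-41164976, chr1:183697993-183698052 and chr7:114315285-114315343, had 4 CpGs each. They differed by −13.2, −13 and −11.8 points, beside −6.14, −5.98 and −9.38 points. Their Sidak-adjusted p from limma p-values was 0.0932, 0.0593 and 0.0701.

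**Figure D3:**
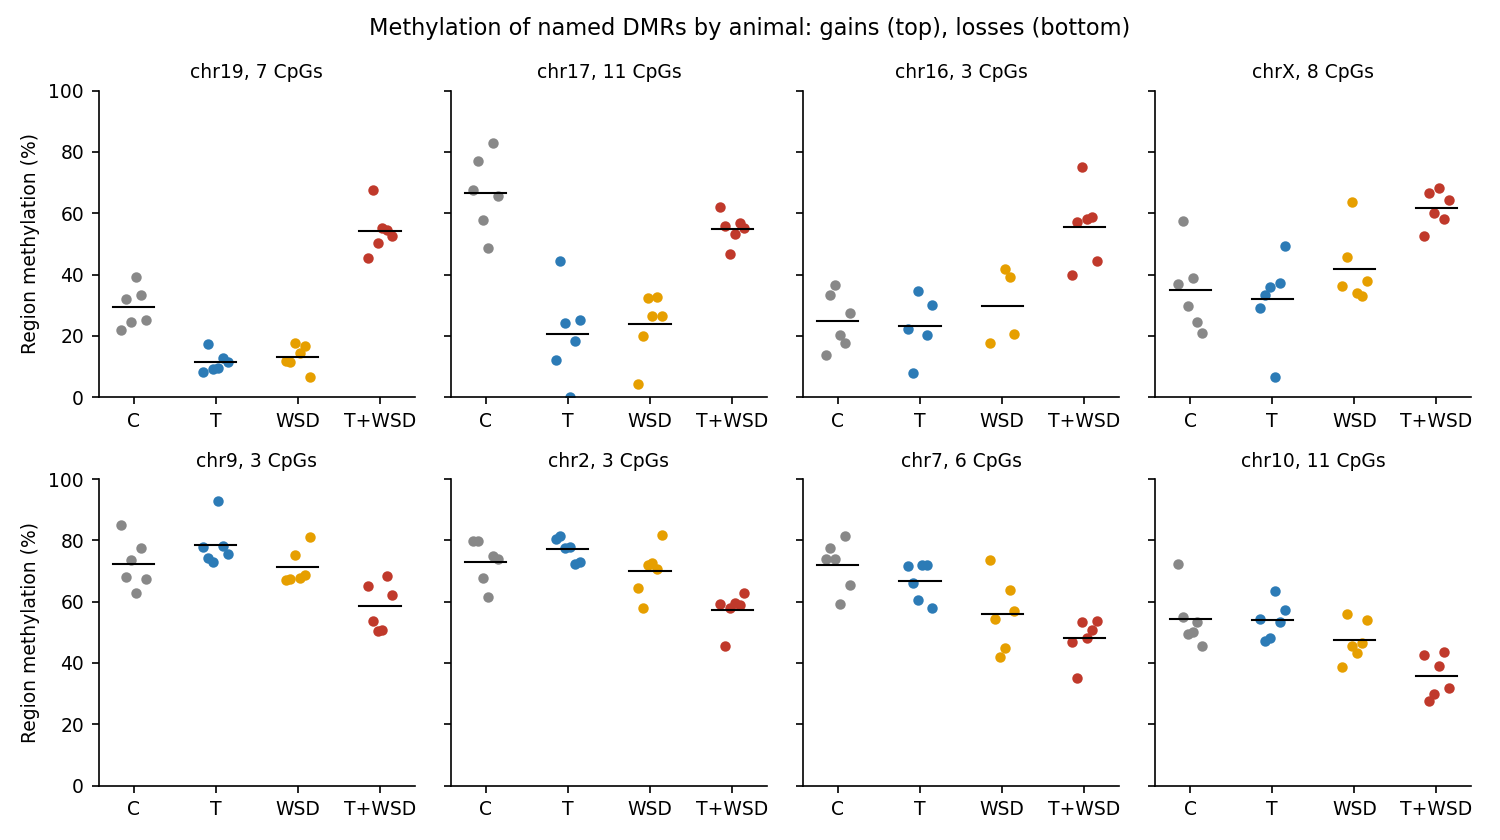
Methylation (%) of 8 named DMRs in every animal of the 4 groups, with the group mean as a line; the top row holds the 4 largest gains and the bottom row the 4 largest losses. T+WSD lies apart from T in each, C is high beside T+WSD in the 11-CpG region of chromosome 17, and the WSD mean lies between those of C and T+WSD in the losses.

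The difference reached past the edges of the DMRs. In the direction of the region, the uncalled CpGs 101 to 300 bp away had a median T+WSD minus T of 10.7 points (10 regions with such CpGs), and those at 301 to 1000 bp one of 3.93 points (29 regions). At 1001 to 5000 bp it was 0.0843 points. CpGs within 300 bp entered the combined p of the CpGs at the edge of the region, which sets where it ends. The nearest values thus describe the extent of the region and are no separate evidence. WSD minus C at the same CpGs was 5.99, 3.55 and 0.412 points. Beside the DMCs outside DMRs the difference was 6.94 points within 100 bp and −0.802 points at 101 to 300 bp. There WSD minus C within 100 bp was −5.54 points, opposite in sign as at the DMCs themselves.

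**Figure D4:**
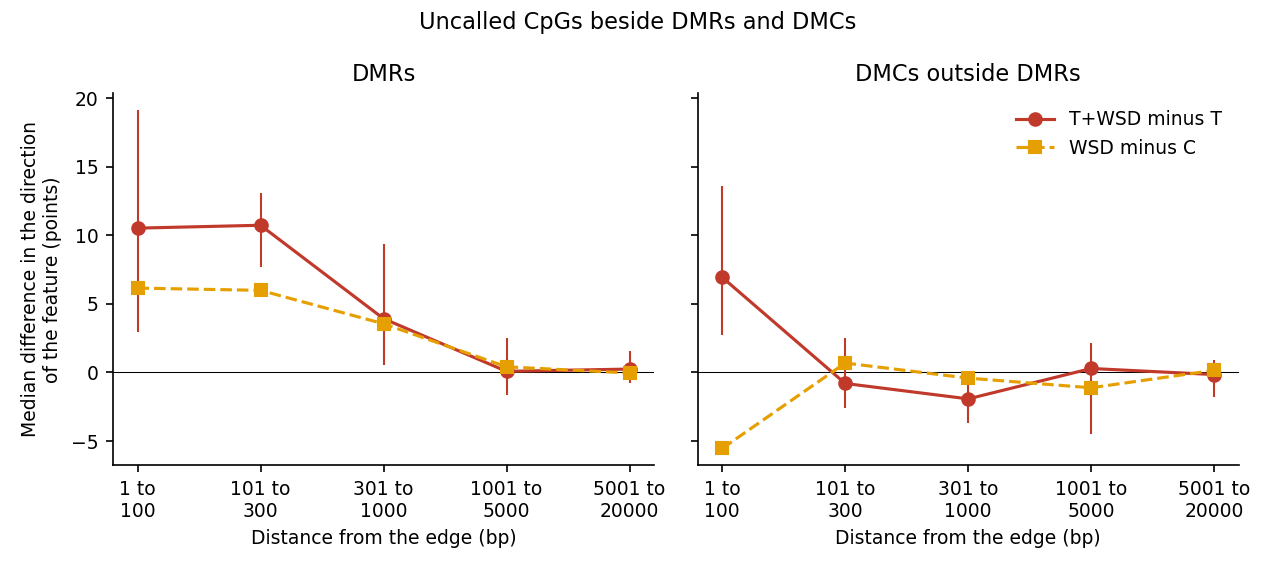
Median difference of uncalled CpGs by distance in bp from the edge of DMRs (left) and of DMCs outside DMRs (right), in percentage points in the direction of the feature; red is T+WSD minus T with the quartiles over features, and yellow is WSD minus C. Within 100 bp both are above 0 beside the 8 DMRs with such CpGs (10.5 and 6.16 points). Beside the 46 DMCs with such CpGs they have opposite signs (6.94 and −5.54 points).

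As a regional test that needs no joining of neighbours, limma was fitted to the means of 100864 tiles of 1 kb with at least 3 CpGs. Of these 5 passed (0.00496%), 4 gains and 1 loss, and 7832 (7.76%) had an unadjusted p under 0.05. With at least 5 CpGs per tile 1 passed, with the log2 ratio of rates 2, without genotype-like CpGs 3 and without T+WSD 8 again 1, and no loss was called in any of these. No loss was called either with only T+WSD and T in the fit, or without T+WSD 9, T+WSD 10, T+WSD 12, T 14 or T 15. Untransformed rates gave 5 gains and 3 losses, and the fit without T 17 gave 4 gains and 4 losses. The tile with the largest gain held the 7 CpGs of the chromosome 19 region above. Another 3 gains followed the number series. At chr8:51154001-51155000 (3 CpGs) the T animals lay between 45.4 and 68.2% and WSD between 41.7 and 63.8%, while T+WSD lay between 74.2 and 87.5% and C between 79 and 93.2%. The gain was 26.1 points beside −35.9 points for WSD minus C. At chr3:34361001-34362000 (4 CpGs) it was 19.3 points beside −21.7, and at chr3:2787001-2788000 (3 CpGs) 20.6 points beside −12.2. The loss, at chr5:6621001-6622000 (3 CpGs), was −16.8 points beside −6.33, with T animals at 72.5 to 82% and T+WSD animals at 54.5 to 63.1%.

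The number of DMRs rested on single animals, and that of DMCs did so less. Beside the 10 DMRs without T+WSD 8, there were 28 without T+WSD 9 and without T+WSD 10 there were 39. Without T 13, T 14, T 15 or T 17 there were 48, 45, 42 and 43. Leaving out T 16, the library with the most missing values, left 62 DMRs and 62 DMCs. Without any 1 animal the smallest difference among the 73 regions was 9.48 points. Their direction was set by the choice on these animals, so that its persistence is no sign of stability. The share of DMRs with WSD minus C in the same direction was 71.4% without T+WSD 9 and at least 73.3% without any animal other than T+WSD 8 or T+WSD 9.

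**Figure D5:**
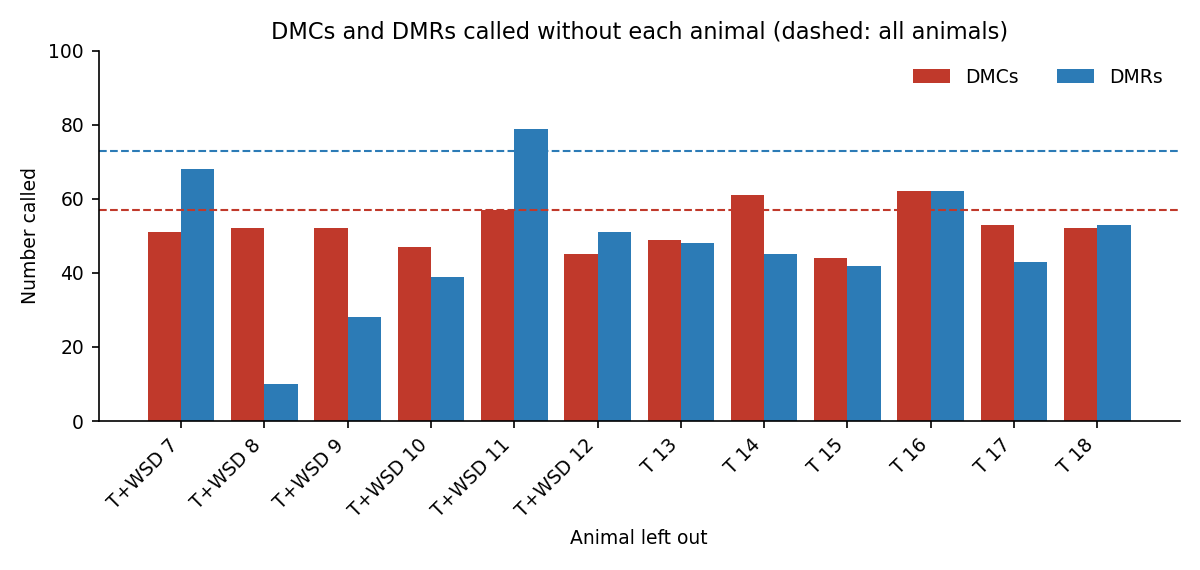
Number of DMCs (red) and DMRs (blue) called when 1 animal of T+WSD or T was left out, with dashed lines at 57 DMCs and 73 DMRs for all animals. DMCs lie between 44 and 62, whereas DMRs fall to 10 without T+WSD 8 and reach 79 without T+WSD 11.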

How the data were processed

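Methylation was measured by RRBS in 24 animals, each with its own library, and groups were taken from the labels. Per the submitters' processing notes, reads were processed with FastQC 0.11.5, Trim Galore 0.4.2, Bismark 0.16.1 and limma. Per the study's methods they were aligned to rheMac8, and CpGs were kept if at least 4 animals of each group had 10 or more reads there. The authors deposited the percent of methylated reads per CpG and animal, with no scaling between animals. Read coverage was not used here, so depth above that floor is unknown and no interval from reads was computed. Every position had a value in at least 4 animals of each group, and missing values stayed missing. A low depth in an animal widens its values.

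Rates were arcsine-transformed and fitted with limma 3.58.1 in R 4.3.3, all 4 groups in one fit. The fit was rewritten in Python 3.11.15 with numpy 2.4.6, and both gave the same 57 DMCs. Adjusted p-values are Benjamini-Hochberg over all positions or tiles. DMRs followed the comb-p procedure: p-values were combined with their autocorrelation in steps of 50 bp, and CpGs that passed 0.05 after adjustment were joined over gaps of up to 300 bp. The procedure was tested on simulated data. Animals count as replicates, and exact tests ran over every division of the animals into 6 and 6. The comparison, the lists and the rules were chosen with earlier results of these data known. Named were the 10 largest gains and losses among DMRs of at least 3 CpGs without overlap between T+WSD and T (9 losses existed), the 3 largest gains and losses among DMCs without overlap, and the called tiles. The gene and marker lists of the design were not applied, since no annotation of the build was used here. Alternatives covered the transformation, groups in the fit, filters, thresholds, tile size and the omission of each animal. The DMC and DMR shares by direction were added to these once the data had been seen.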

Additional observations from a re-analysis of the deposited data

Results flagged for a closer look

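In 73 groups of 6 animals looked at, 9 held an animal whose gap to the nearest other, as a share of the range, exceeded the 95% critical value of Dixon's test. Chance would give about 1 in 20 for independent groups of normally distributed values. These groups share animals and in part CpGs, so their number was not tested against that rate. T+WSD 8 was one of them in 3 cases. It was at 1.86% over the CpGs at 0 to 5%, against 1.10 to 1.38% in the other T+WSD animals. It was also low at 2 losses, at 35.1% against 47.0 to 53.6% at chr7:7239502 and at 45.5% against 58.0 to 62.8% at chr2:59457508.

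The other cases were in T. T 13 was at 1.60% over the CpGs at 0 to 5% (others 1.04 to 1.20%), at 81.7% at chr20:41164916 (others 89.4 to 93.1%) and at 91.7% at chr20:73652732 (others 76.9 to 81.8%). T 18 was at 68.4% over the CpGs at 60 to 80% (others 70.3 to 71.3%). T 14 was at 46.1% at chr7:114315285 (others 51.7 to 54.7%). T 16 was at 92.7% at chr9:126181442 (others 72.9 to 78.1%).

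At several named features the diet groups did not overlap with chow either under or without testosterone, in opposite directions. This difference between the diet differences was not tested, since the features were chosen by one of them. It was 137 points at the DMC chr4:45310582, 125 at chr11:130760594, 123 at chr15:2945858 and −80.2 at chrX:67570373. For the DMRs it was 59.2 points at chr19:45316411, in which WSD and T were both low, and 77.0 at chr17:29478350. Among the tiles it was 59.2 points for the one that holds this chromosome 19 region, 62.0 at chr8:51154001 and 41.1 at chr3:34361001.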

How the results depend on the processing

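T+WSD minus T in mean methylation, near 0, was 0.341 points when each animal was averaged over its own measured CpGs and −0.212 to 0.0649 without single animals. With classes from C alone the 80 to 95% class differed by −0.593 points (exact permutation p = 0.0433), and without single animals by −0.684 to −0.376 (lowest exact p = 0.00866). The 60 to 80% class then ranged from −1.30 to −0.608 (lowest exact p = 0.013) and the 40 to 60% class from −0.625 to 0.181. The pseudo-F was 0.952 over the 10000 most variable CpGs, and without single animals 1.08 to 1.16 (highest exact p = 0.0498).

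DMCs numbered 91 at an adjusted p under 0.1, and 41 to 69 under the other settings with all animals. DMRs numbered 169 among CpGs of mean level between 5% and 95%, and 50 to 77 under the others. Without single animals there were 44 to 62 DMCs and 10 to 79 DMRs. Tiles called were 8 with untransformed rates, 2 with the log2 ratio, 1 with at least 5 CpGs, 3 without genotype-like CpGs, and 1 (without T+WSD 8) to 8 (without T 17) without single animals, so their count is not firm. The share with WSD minus C in the same direction was 36.2% of DMCs with only T+WSD and T in the fit. It was 2.22% (without T+WSD 12) to 18.9% of DMCs and 60% to 84.8% of DMRs without single animals. The causes were not tested. Of 244 repeats over the 19 named regions, whose direction was fixed by their choice, 1 moved beyond the spread, the chromosome 2 loss given above.

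Depth per value is unknown, which limits the precision of each. No paired analysis was possible because the animal numbers differ between the groups. Promoters of named genes were not run, since no annotation of the build was used here.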
